A study of Homo sapiens with 8 samples.

Results

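The ID family comprises 4 human genes, ID1, ID2, ID3 and ID4, that encode small inhibitors of basic helix-loop-helix (bHLH) transcription factors. They were taken as every probe set whose platform annotation names one of these symbols and no other gene, which gave 11 probe sets (3 for ID1, 1 for ID2, 3 for ID3 and 4 for ID4) of 45253 with a single gene symbol, or 4 of 18239 genes. The family was chosen by its measured values: its levels, its differences between treatments and its lower levels late in control cells. Those values are therefore given as a description and carry no test. The cells were NS-SV-AC, an immortalised human line from the secretory acini of a salivary gland, kept as 1 line throughout. They received TNF-α, an inflammatory cytokine, at 20 ng/ml or, as controls, bovine serum albumin (BSA). RNA was extracted after 2, 6, 12 or 24 h. Each combination of treatment and time was measured on 1 Affymetrix GeneAtlas array, which gave 4 TNF-α arrays, 4 BSA arrays and no replicate at any time. Whether cultures were handled separately is not given in the sources used here.

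ID proteins have the helix-loop-helix part through which bHLH factors pair, but lack the basic part that touches DNA. They bind the E proteins (TCF3, TCF4 and TCF12), the common partners of tissue-specific bHLH factors, and so keep those pairs away from their DNA sites. ID1, ID2 and ID3 are classical target genes of bone morphogenetic protein (BMP) signals carried by SMAD proteins, their transcripts and proteins are short-lived, and high levels are typical of dividing, less differentiated cells.

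The levels are log2 values, so 1 unit is a 2-fold step, and a probe set is a group of probes read as 1 value. On the 8 arrays the median probe set read 4.33 to 4.36. The lower quartile, used here as the mark of a level near background, was 3.37 to 3.42 on 7 arrays and 3.51 on the TNF-α array at 24 h. That array stood apart. Its GAPDH control probe sets for the 3′ and 5′ ends differed by 6.28, where those of the 7 remaining arrays differed by 0.20 to 0.37, and this gap widens when RNA is degraded. The ACTB gap was 6.88 on that array and 2.59 to 3.47 on the others. Its correlation with the other arrays across genes was at most 0.946. The label of acinar cells was checked against markers. Of 9 measured acinar markers only SLC12A2, a chloride cotransporter, lay above the array median on all 8 arrays, while the water channel AQP5 (3.88 to 4.13) and BHLHA15, the bHLH factor of mature secretory cells (3.41 to 3.59), lay below it on all 8. Of the 8 epithelial markers, KRT18 (7.36 to 10.3) and KRT5 (4.40 to 4.78) lay above the median on all 8 arrays. KRT14 (3.72 to 3.92), KRT19 (3.75 to 4.07), KRT7 (3.06 to 4.22) and EPCAM (2.83 to 3.57) lay below it on all 8. CDH1 (3.07 to 4.37) lay above it on 1 array, the TNF-α array at 24 h. KRT8, the usual partner of KRT18, read 8.59, 8.68, 8.67 and 2.72 at 2, 6, 12 and 24 h in TNF-α and 8.71, 8.91, 8.59 and 6.37 in BSA, so both 24 h arrays were low. The summed log2 levels of the 8 epithelial markers were 40.55 to 40.95 in TNF-α up to 12 h and 34.80 at 24 h, against 40.27 to 41.21 and 37.23 in BSA. Of the fibroblast markers COL3A1, DCN and LUM lay above the median on all arrays and COL1A1 did not (3.72 to 3.94). The leukocyte marker PTPRC read 3.01 to 3.27 and the endothelial PECAM1 4.86 to 5.18. The summed levels of the 6 fibroblast markers were 35.74 to 35.87 in TNF-α up to 12 h and 39.16 at 24 h, against 35.29 to 35.98 over the BSA arrays, so only the TNF-α array at 24 h lay outside the BSA range. Those of the 5 leukocyte markers were 16.59 to 16.95 in TNF-α up to 12 h and 17.23 at 24 h, against 16.12 to 16.52 in BSA. Those of the 5 myoepithelial markers were 24.63 to 25.07 in TNF-α up to 12 h and 27.54 at 24 h, against 23.61 to 24.73 in BSA. Their part in the results below was not tested.

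The promoters of the 3 expressed members are shown because these genes were all lower late in control cells but differed from one another between TNF-α and BSA. Each window runs from 250 bases before to 50 bases after the start site in the sense direction (RefSeq, GRCh38.p14, matched for 4 of 4 members). The genes themselves span chr20:31605289-31606510 (ID1), chr2:8682056-8684461 (ID2), chr1:23557926-23559501 (ID3) and chr6:19837370-19842197 (ID4). Capitals mark the TATA box core TATAA and the CCAAT box CCAAT on either strand. ID1 is on chromosome 20, plus strand (chr20:31605039-31605338), ID2 on chromosome 2, plus strand (chr2:8681806-8682105), and ID3 on chromosome 1, minus strand (chr1:23559452-23559751).
ID1: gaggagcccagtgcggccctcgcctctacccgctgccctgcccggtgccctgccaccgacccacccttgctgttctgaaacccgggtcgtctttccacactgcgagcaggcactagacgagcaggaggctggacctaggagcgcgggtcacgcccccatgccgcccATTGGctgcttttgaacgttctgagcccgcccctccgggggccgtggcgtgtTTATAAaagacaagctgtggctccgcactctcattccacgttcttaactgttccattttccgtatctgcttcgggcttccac
ID2: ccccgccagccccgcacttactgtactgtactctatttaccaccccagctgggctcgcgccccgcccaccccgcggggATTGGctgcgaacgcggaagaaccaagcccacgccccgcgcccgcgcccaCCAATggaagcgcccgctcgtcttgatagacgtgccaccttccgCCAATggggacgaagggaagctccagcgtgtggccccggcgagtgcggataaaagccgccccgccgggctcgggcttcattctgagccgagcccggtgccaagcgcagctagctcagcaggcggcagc
ID3: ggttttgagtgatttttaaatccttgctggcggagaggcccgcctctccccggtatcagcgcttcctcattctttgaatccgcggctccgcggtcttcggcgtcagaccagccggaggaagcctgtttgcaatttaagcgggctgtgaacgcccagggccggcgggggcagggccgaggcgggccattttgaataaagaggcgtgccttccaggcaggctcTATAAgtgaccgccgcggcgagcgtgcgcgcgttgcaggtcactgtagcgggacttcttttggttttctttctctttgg

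ID1 held TATAA 31 bases before the start site, where it overlaps a copy on the other strand that starts 32 bases before, and ID3 held it 29 bases before. ID2 held no exact match to TATAA but carried CCAAT 3 times, with first bases 172, 122 and 78 bases before the start, whereas ID1 had 1 copy, 84 bases before, and ID3 none. Of 35116 promoter windows of the same length 20.4% held TATAA and 34.6% held CCAAT. The GC box GGGCGG, found in 45.0% of windows, occurred 2 times each in ID1 and ID2 and not in ID3. One copy in ID1 ended directly beside its CCAAT box. ID3 alone of the 3 held the core of the CRE, TGACG, (24.6% of windows) and the short SMAD motif CAGAC (45.3%), which overlapped each other. None of the 3 windows held the BMP SMAD element GGCGCC (19.2%), the full SMAD box GTCTAGAC (0.202%), the EGR site GCGGGGGCG (5.07%) or the NF-κB consensus (5.91%), and ID2 alone held the E-box CANNTG (68.7%). All motifs were searched on both strands. These are matches of letters in 300 bases only, and distal elements lie outside the windows.

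**Figure D1:**
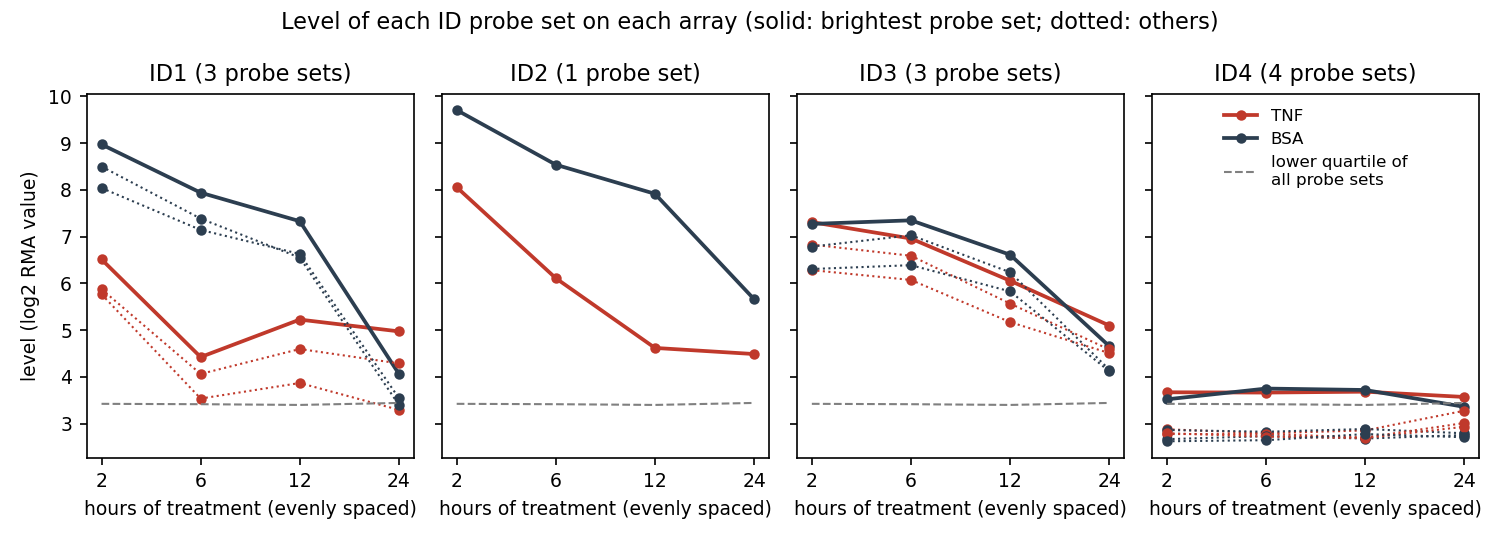
Level (log2 RMA value) of each of the 11 ID probe sets on each of the 8 arrays, with hours of treatment on an evenly spaced axis, TNF-α arrays in red and BSA arrays in dark blue. Solid lines are the brightest probe set of a gene, dotted lines the others, and the dashed line is the mean of the lower quartiles of both arrays of that time. ID1 and ID2 lie lower in TNF-α than in BSA from 2 to 12 h, ID3 is lower late in both arms, and 3 of the 4 ID4 probe sets lie under the lower quartile throughout.

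How did the family differ between TNF-α and BSA? ID1, the member best known as an immediate BMP target, was 5.50-fold lower with TNF-α at 2 h, 11.5-fold at 6 h and 4.30-fold at 12 h on its brightest probe set. ID2, which also binds the retinoblastoma protein, was 3.14-fold, 5.38-fold and 9.84-fold lower at the same times. ID3, another BMP target, differed by 1.03-fold at 2 h and was 1.31-fold and 1.47-fold lower at 6 and 12 h. ID4, a member with a role in neural and mammary cells, was near background in both arms.

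The brightest ID1 probe set (11716196_x_at) read 6.51, 4.42, 5.23 and 4.97 at 2, 6, 12 and 24 h in TNF-α and 8.97, 7.94, 7.33 and 4.06 in BSA. All 3 TNF-α values up to 12 h lay below the lowest BSA value of these times, and the BSA value at 24 h was the lowest of all 8. The differences, TNF-α minus BSA, were −2.46, −3.52, −2.11 and 0.91. The second probe set (11716195_a_at) read 5.88, 4.06, 4.60 and 4.29 in TNF-α and 8.04, 7.14, 6.63 and 3.54 in BSA. The third (11753661_a_at) read 5.77, 3.54, 3.87 and 3.29 in TNF-α and 8.50, 7.39, 6.55 and 3.40 in BSA. The probe sets gave the same picture up to 12 h, with differences of −2.73 to −2.17 at 2 h, −3.85 to −3.08 at 6 h and −2.68 to −2.03 at 12 h. The −3.85 rests on the 3.54 in TNF-α at 6 h, close to the lower quartile of that array (3.42). It is therefore a bound near background rather than an exact size. Over the 8 arrays the 3 probe sets correlated with r of 0.985 to 0.999. On all 3 the lowest TNF-α level of the first 3 times was at 6 h, and the level at 12 h was higher by 0.80, 0.53 and 0.33.

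At 24 h the ID1 probe sets disagreed in sign. The differences were 0.91, 0.74 and −0.10. BSA levels at that time were 4.06, 3.54 and 3.40, and the lower quartile of that array was 3.37. The TNF-α value comes from the array with the GAPDH gap of 6.28, whose part in this difference was not tested.

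ID2 was read by 1 probe set (11715994_x_at). The suffix _x_at marks probes that may also match other transcripts, and the brightest probe sets of ID1, ID3 and ID4 carry it too. The ID2 probe set read 8.06, 6.11, 4.62 and 4.49 at 2, 6, 12 and 24 h in TNF-α, against 9.71, 8.54, 7.92 and 5.66 in BSA. TNF-α was the lower arm at each time, but its 24 h value comes from the array that stood apart. At that time 10.0% of all probe sets were at least 2-fold lower in TNF-α. Up to 12 h the ID2 gap between arms widened from one time to the next, by 0.78 between 2 and 6 h and by 0.87 between 6 and 12 h, while that of ID1 was widest at 6 h. The TNF-α level at 12 h (4.62) was already close to that at 24 h (4.49), and both were above the lower quartile.

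The brightest ID3 probe set (11757404_x_at) read 7.31, 6.96, 6.06 and 5.10 in TNF-α and 7.27, 7.35, 6.61 and 4.66 in BSA. The arms overlapped over the time course. The differences over the 3 probe sets were −0.02 to 0.04 at 2 h, −0.44 to −0.32 at 6 h, −0.67 to −0.56 at 12 h and 0.39 to 0.44 at 24 h. The 3 probe sets correlated with r of 0.998 each over the 8 arrays.

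ID4 had 4 probe sets. Of these, 3 lay under the lower quartile on all 8 arrays, between 2.62 and 3.27. The brightest (11721689_x_at) read 3.67, 3.66, 3.68 and 3.57 in TNF-α and 3.52, 3.75, 3.72 and 3.36 in BSA, under the median of every array. Their correlations with each other ranged from −0.16 to 0.85. No difference between arms at 2, 6 or 12 h exceeded 0.17 in size, and 24 h differences were 0.21 to 0.48.

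At least 2-fold lower in TNF-α were 4 of the 11 ID probe sets at 2 h, where 0.0309% of all probe sets were. The same 4, all 3 of ID1 and that of ID2, were lower at 6 h (0.267% of all probe sets) and 12 h (0.614%), and 1 of 11, that of ID2, at 24 h (10.0%). No ID probe set was 2-fold higher at any of these times. At 2 h only 14 probe sets of 9 genes lay so much lower, and the 4 ID probe sets were among them. Ranked from the lowest difference over 18239 genes, ID1 was number 1 at 2 h and at 6 h and number 8 at 12 h, and ID2 was number 3, number 4 and number 1. ID3 was number 1337 at 6 h and number 826 at 12 h. The choice of the family used these differences, so the ranks describe it and support nothing further.

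**Figure D2:**
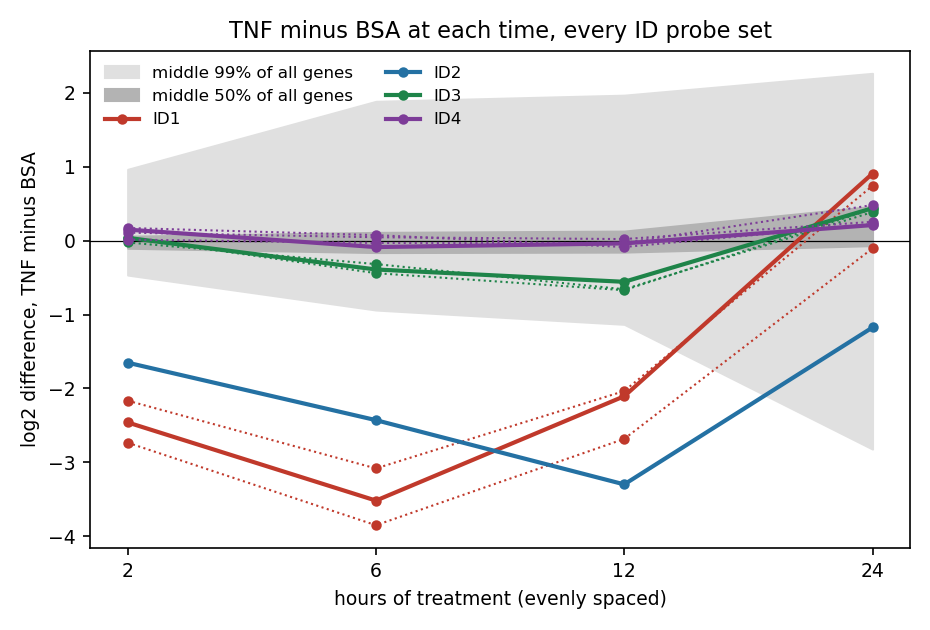
TNF-α minus BSA (log2 difference) for each ID probe set by hours of treatment, on an evenly spaced axis. Solid lines are brightest probe sets, dotted lines the others, and the grey bands hold the middle 99% and 50% of 18239 genes at each time. ID1 and ID2 lie below the outer band at 2, 6 and 12 h and inside it at 24 h, where the band widens to between −2.82 and 2.27.

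How did the family change with time in control cells? Without TNF-α, ID1, ID2 and ID3 were all lower at 24 h than at 2 h, by 30.1-fold, 16.5-fold and 6.12-fold on their brightest probe sets. ID1 and ID2 were lower from 6 h on, ID3 only from 12 h on, and each showed its widest step between 12 and 24 h. In BSA the ID1 differences from 2 h were −1.03, −1.64 and −4.91 at 6, 12 and 24 h. Those of ID2 were −1.17, −1.79 and −4.05, and those of ID3 0.08, −0.66 and −2.61. Across the probe sets of a gene the 24 h difference was −5.10 to −4.50 for ID1 and −2.63 to −2.19 for ID3. The ID1 probe sets at −5.10 and −4.50 read 3.40 and 3.54 in BSA at 24 h, close to the lower quartile of 3.37, so these 2 values are bounds near background rather than exact sizes. ID4 differed by −0.16 to 0.09 near background.

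In BSA, 3 of 11 ID probe sets were at least 2-fold lower at 6 h than at 2 h, where 0.789% of all probe sets were, 4 at 12 h (0.281%) and 7 at 24 h (1.58%). The 7 were all probe sets of ID1, ID2 and ID3. Among 18239 genes the 24 h difference of ID1 was number 1 from the lowest, that of ID2 number 3 and that of ID3 number 8, which again used the values that picked the family. The GAPDH gap of the BSA array at 24 h was 0.21, within the 0.20 to 0.37 of the BSA arrays. Its ACTB gap of 3.47 was the highest of the 4 BSA arrays (2.75 to 3.09 on the others), and KRT8 and the epithelial sum were also lowest there among BSA arrays. Their part in the lower ID levels at 24 h was not tested.

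Within the TNF-α arm, the brightest ID1 probe set differed from its level at 2 h by −2.09, −1.29 and −1.54 at 6, 12 and 24 h, ID2 by −1.95, −3.44 and −3.57, and ID3 by −0.35, −1.25 and −2.21. At least 2-fold lower were 4 of 11 ID probe sets at 6 h (0.840% of all probe sets), 7 at 12 h (0.886%) and 7 at 24 h (9.86%). On all 3 probe sets ID3 was lower at 12 and 24 h than at 2 h in both arms. The 24 h value in TNF-α is that of the array that stood apart.

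**Figure D3:**
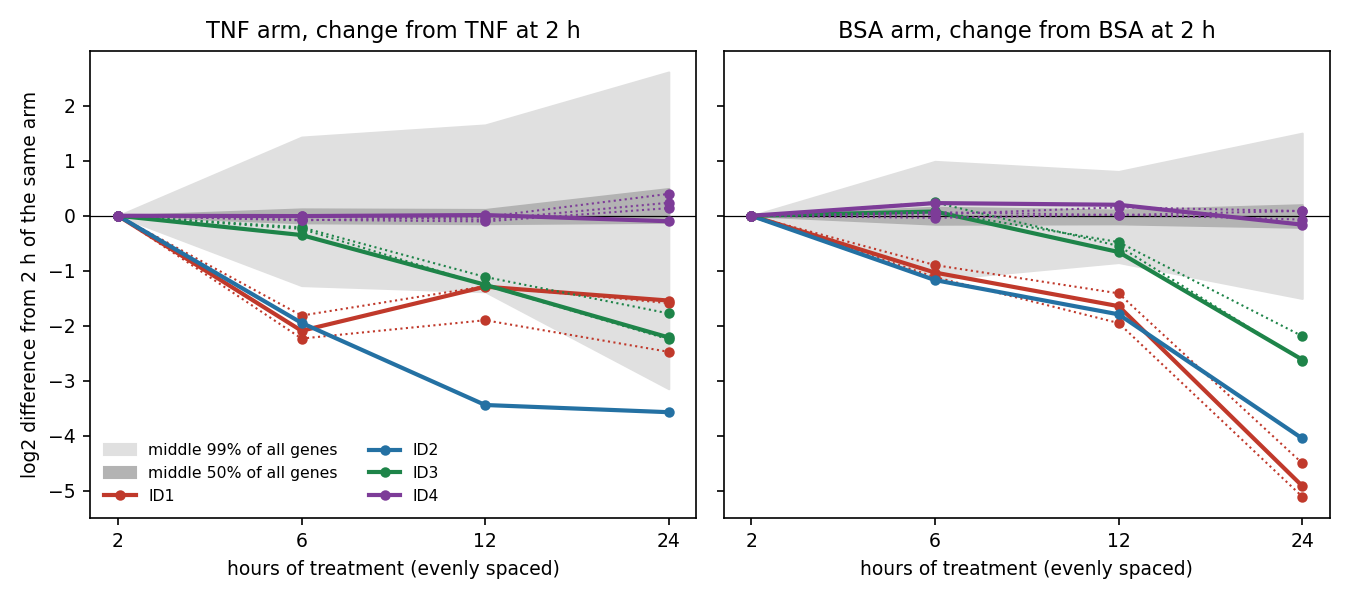
Change from 2 h (log2 difference) within the TNF-α arm, left, and the BSA arm, right, for each ID probe set against hours on an evenly spaced axis, with grey bands holding the middle 99% and 50% of 18239 genes. In BSA the 24 h points of ID1, ID2 and ID3 lie below the outer band, whose lower edge is at −1.50. In TNF-α only ID2 lies below the band at 24 h, whose lower edge is there at −3.14.

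Which genes had a profile most like each member? Likeness was Pearson's r over the 8 arrays, among 6107 genes with a range of at least 1 log2 unit, and the arrays are shared by all genes compared. For ID1 the 5 most alike were SERTAD4 (0.976), the kinase MYLK3 (0.941), the small GTPase RASL11B (0.936), the protocadherin PCDH9 (0.915) and the surface glycoprotein CD24 (0.911). For ID2 they were TMEM129 (0.992), ANXA2R (0.990), the GABA receptor subunit GABRA2 (0.944), SERTAD4 (0.935) and CD24 (0.927), so SERTAD4 and CD24 stood in both sets. SERTAD4 read 7.76, 7.03, 7.21 and 7.03 in TNF-α and 8.35, 7.98, 8.02 and 7.09 in BSA, with its lowest TNF-α values at 6 and 24 h. For ID3 they were MAGED1 (0.990), TMT1A (0.985), DPM3 (0.980), AIG1 (0.977) and the channel ANO2 (0.976). Among the members themselves ID1 and ID2 correlated with r = 0.887, ID2 and ID3 with 0.770 and ID1 and ID3 with 0.707. The nearest profile to ID4 was RBM14 (0.939), then NUBP1, EMC3, S100A2 and DDX24 (0.917 to 0.931), set against an ID4 range of 0.39 near background. Fewer than 5 of each set recurred when the measure or the arrays were changed.

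What did the genes around the family do? These were 9 lists with 84 measured genes, tested with limma over the 4 times, with p adjusted by Benjamini-Hochberg over all genes. The fit counts a difference that changes in size with time partly as spread. A gene that did not pass is therefore not shown to be unchanged. None of the 84 passed (adjusted p from 0.415 to 0.985; 10 of the 84, or 11.9%, and 7.51% of all genes had an unadjusted p under 0.05), where 0.0164% of all genes were called higher and 0% lower. In the fit without the 24 h pair 2 of the 84 rose and 0 fell, against 0.318% and 0.0493% of all genes. They were BHLHE40, a bHLH repressor of the clock and stress response (1.08 ± 0.08, SE, 3 pairs, limma adjusted p = 0.0163), and ATF3, a stress factor that represses ID1 together with SMAD3 in epithelial cells (1.15 ± 0.11, limma adjusted p = 0.0305). Both were higher in 3 of 3 pairs up to 12 h and lower at 24 h (−0.38 and −1.95), and over the 4 times they were 0.71 ± 0.29 and 0.37 ± 0.59 with adjusted p of 0.652 and 0.813. Of the 7 ATF3 probe sets 6 were higher at 6 h, and their mean was 0.33 from 2 to 12 h with adjusted p = 0.203.

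The partners of ID proteins were the first list. The 3 E proteins TCF3, TCF4 and TCF12 did not pass, with a median difference of −0.20, −0.08, −0.54 and 0.57 at 2, 6, 12 and 24 h, where the median of all genes was −0.02, −0.01, −0.00 and 0.20. At 24 h their probe sets disagreed. TCF12 was higher on 1 of 11 (−2.29 to 0.46), TCF3 on 2 of 4 (−0.47 to 0.60) and TCF4 on 8 of 11 (−0.37 to 1.19). TCF4 read 6.87, 6.57, 6.34 and 7.41 in TNF-α and 7.13, 6.55, 7.22 and 6.53 in BSA, so its arms overlapped. Of 25 tissue-specific bHLH factors, the usual partners of E proteins, 0 passed, and their medians were −0.00, 0.01, 0.09 and 0.21. These medians largely describe genes at low levels, because most of the list read below the array median. OLIG1 (2.53 to 2.76), MYOD1 (2.80 to 2.96) and NEUROG3 (2.85 to 3.07) lay below the lower quartile on every array. By contrast TWIST1 (9.49 to 10.8) and HAND2 (6.47 to 7.53) lay well above the median. MSC, a bHLH repressor also called musculin, read 3.92, 5.85, 4.90 and 3.84 in TNF-α and 3.66, 3.72, 3.64 and 3.69 in BSA, so all 4 TNF-α values were above all BSA values (0.95 ± 0.36 over the 4 times, adjusted p = 0.652). Next in size over the 4 times were OLIG2 (0.38), which in BSA lay below the lower quartile (3.06 to 3.30), and HAND2 (−0.29). Among 10 HES, HEY and BHLHE repressors, with medians of 0.02, 0.14, 0.12 and 0.29, BHLHE40 read 7.24, 5.84, 5.74 and 4.64 in TNF-α and 6.18, 4.88, 4.52 and 5.02 in BSA, and HES6 was −1.18 at 6 h.

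The BMP pathway was covered by 3 lists. Of 7 ligands 0 passed, with medians of −0.10, −0.02, 0.02 and 0.31. BMP4, a ligand that induces ID genes, read 8.03, 7.31, 7.29 and 6.44 in TNF-α and 8.52, 8.09, 8.08 and 6.17 in BSA. It was lower in TNF-α in 3 of 3 pairs up to 12 h (−0.69 ± 0.09, limma adjusted p = 0.0728) and −2.35 in BSA at 24 h against 2 h, without passing. GDF6, another ligand, was −0.55, −2.13, −1.56 and 0.31 on its brightest probe set, and its other probe set was 0.04 at 6 h. Of 11 receptors and SMADs 0 passed, with medians of −0.14, 0.01, −0.15 and 0.68. The last is a median of brightest probe sets on the array that stood apart, and other probe sets differed. At 24 h SMAD5 was higher on 2 of 5 probe sets (−1.12 to 0.68), BMPR2 on 1 of 3 and ACVR1 on 2 of 4 (−1.40 to 0.84). SMAD1, SMAD9, BMPR1B, ACVR2B and ACVRL1 were higher on all of theirs. SMAD1, a carrier of the BMP signal, was −0.18, 0.60, 0.62 and 1.24. Of 10 BMP-SMAD target and feedback genes other than the ID genes 0 passed, with medians of 0.06, 0.08, −0.01 and 0.13. BAMBI, a decoy receptor that dampens BMP and TGF-β signals, read 8.29, 7.12, 6.29 and 6.75 in TNF-α and 5.39, 5.86, 5.34 and 5.94 in BSA. All TNF-α values of BAMBI were above all BSA values (1.48 ± 0.37 over the 4 times, adjusted p = 0.599). SMAD7, an inhibitory SMAD, was 0.37, 0.27, 0.39 and 1.49 on its brightest probe set of 3 (0.63 ± 0.23 over the 4 times, adjusted p = 0.652), and 0.28 over the 4 times as their mean.

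Factors reported to act on ID promoters formed a list of 8, of which 0 passed over the 4 times, with medians of 0.15, 0.36, 0.13 and 0.15. ATF3 read 8.42, 5.94, 5.64 and 5.10 in TNF-α and 6.99, 4.84, 4.74 and 7.05 in BSA. EGR1, reported to act on ID1, was −1.03, −0.15, −0.44 and −0.84, and SMAD3 was 0.49, 0.86, 0.47 and 0.56 (0.59 ± 0.10, adjusted p = 0.415; 0.29 as the mean of its 5 probe sets). Of 4 genes for ID protein stability 0 passed, with medians of −0.03, 0.11, −0.02 and −0.13, and USP1, which removes ubiquitin from ID proteins, was −0.07, 0.20, −0.07 and −0.16. Of 6 cyclin-dependent kinase inhibitors, several of which E proteins activate, 0 passed, with medians of 0.24, 0.04, 0.01 and 0.48. CDKN2B was 0.65, 1.81, 0.77 and 1.74 on its brightest probe set of 3 (1.25 ± 0.24, limma adjusted p = 0.502). As the mean of its probe sets it was 0.88 over the 4 times. Its lowest probe set values were 0.16, 0.30, −0.01 and −0.18 at 2, 6, 12 and 24 h. CDKN1A was 0.54, 1.14, 0.70 and −0.55.

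With time in BSA, 0 of the 84 listed genes and 0% of all genes passed in limma's fit of the slope over the 4 BSA arrays, which had 2 residual degrees of freedom (adjusted p at least 0.814; 7 of the 84 and 759 of all genes had an unadjusted p under 0.05). Between 2 and 24 h in BSA the brightest probe sets of the listed genes differed by −2.35 (BMP4) to 1.04 (GREM1, a BMP antagonist). Over all 4 probe sets GREM1 was −0.34 to 1.04. HES1 was −0.01 on its brightest probe set but −2.08 to 0.07 over its 5. MYC, reported to act at ID2, was −1.21, SMAD3 −1.002, BHLHE40 −1.16 and TWIST1, a bHLH factor of mesenchymal cells, −0.81. The E proteins differed in direction. TCF12 was 0.98 and higher at 24 h on 11 of 11 probe sets (0.31 to 2.42). TCF3 was 0.58 and higher on 2 of 4 (−0.30 to 0.58), and TCF4 was −0.60 and higher on 0 of 11 (−0.71 to −0.12).

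**Figure D4:**
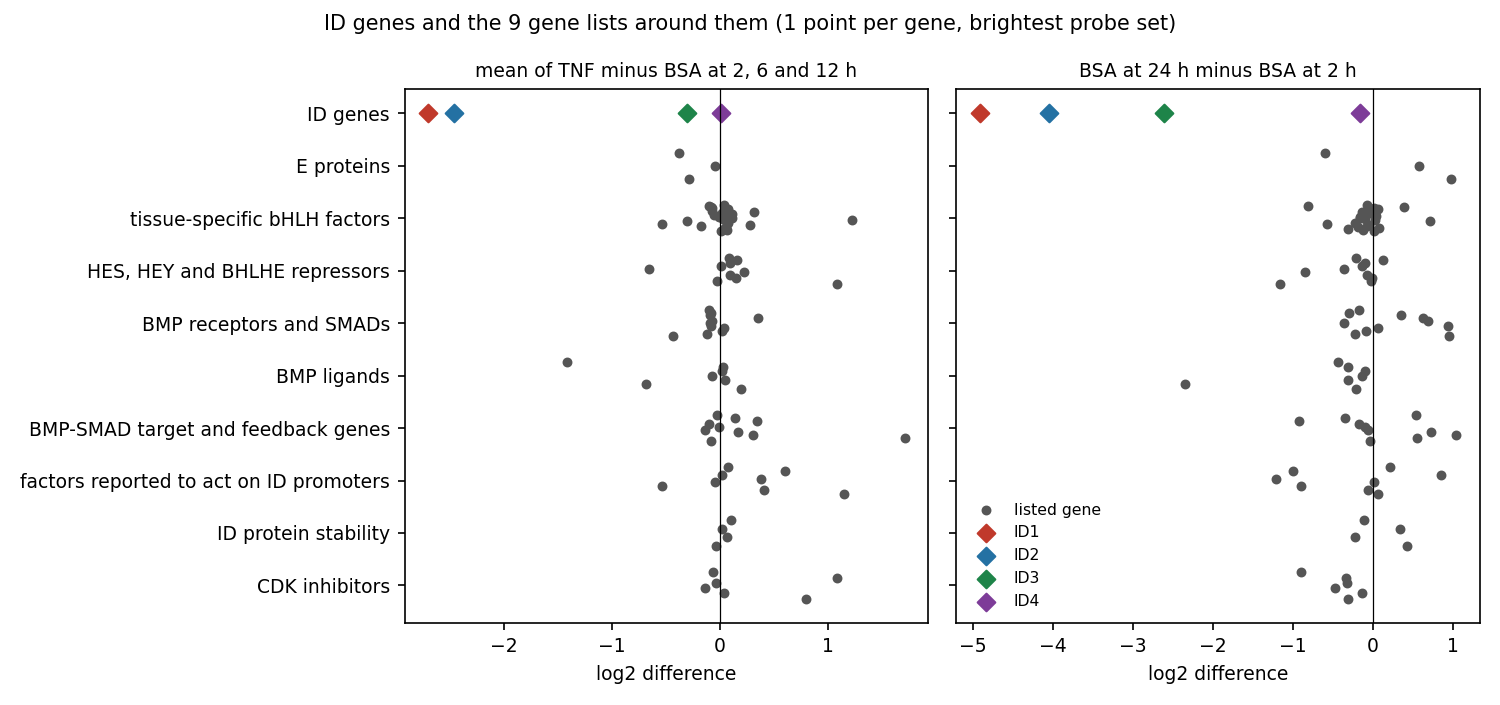
Log2 difference of each listed gene (grey points, brightest probe set, 1 row per list) and of the ID genes (coloured diamonds). The left panel shows the mean of TNF-α minus BSA at 2, 6 and 12 h, where ID1 and ID2 lie at −2.69 and −2.46 and every listed gene lies to their right. The right panel shows BSA at 24 h minus BSA at 2 h, where ID1 and ID2 lie left of every listed gene and ID3 (−2.61) lies next to BMP4 (−2.35).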

How the data were processed

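Expression was measured on 8 Affymetrix GeneAtlas arrays, 1 per treatment and time, from 10 ng of total RNA labelled by 3′ in vitro transcription, per the labels' protocols. The deposited values are log2 and were made by the authors with RMA (background correction, quantile normalisation, probe set summary), per the submitters' processing notes. No version of RMA is named in the labels. Values entered the analysis unchanged, and arrays have no read depth, so their number limits the precision.

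Probe sets were named by the platform annotation, with symbols checked through Entrez identifiers (18180 matched, 62 not). Those with several symbols (1327, of which 1 names ID2 and a further gene), no symbol (2713) or control status (93) were left out. The brightest probe set stood for a gene, also in the medians of the lists, which count genes near background like any other. Genes outside the family were tested in R 4.3.3 with limma 3.58.1 (lmFit, eBayes, two-sided), with treatment as coefficient and time as a factor (3 residual degrees of freedom, 2 without the 24 h pair), or with log2 hours in BSA. Adjusted p under 0.05 counted as passing. Both fits were run on simulated data with even, independent noise and large changes, which checks the code and does not measure power in these data. With no replicates, the p-values of TNF-α against BSA rest largely on how much the difference between arms varied from time to time. The TNF-α array at 24 h enters that spread. A difference that changed in size with time, as that of BAMBI did (2.91, 1.26, 0.95 and 0.81), therefore counts partly as spread. In BSA the spread is that around a straight line in log2 hours. Single-time differences were counted from 2-fold on and not tested. Figures and differences used Python 3.11.15. The members and gene lists were chosen with earlier results of these data known. In each list the genes past the threshold are named, or else up to 3 of the largest mean differences, plus some list members outside this rule whose values help the account, chosen after their values were seen. Alternatives were other scaling, the mean of probe sets, a filter on dim genes, array weights, and leaving out times.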

Additional observations from a re-analysis of the deposited data

Results flagged for a closer look

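ID1 at 24 h was set apart because its difference between TNF-α and BSA had the opposite sign to those at 6 and 12 h, and the contrast between times was not tested. The brightest probe set was 0.91 higher in TNF-α at 24 h, after −3.52 and −2.11 at 6 and 12 h. ID3 was set apart for the same reason, with 0.44 at 24 h after −0.39 and −0.56, also untested. On a further ID1 probe set (11753661_a_at) the 24 h difference was −0.10. These 24 h differences rest on the TNF-α array with the GAPDH gap of 6.28. The median difference of all genes at 24 h was itself 0.20. There 92.3% of genes had a lower difference than ID1 and 73.2% a lower one than ID3. The part of that array was not tested.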

How the results depend on the processing

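Of 28 differences (4 genes, TNF-α minus BSA at 4 times and 3 later times against 2 h in BSA), 14 were at least 2-fold lower, and all 14 stayed so after quantile normalisation again, after centring each array on its median and with the mean of a gene's probe sets. Of the 28, only ID1 at 24 h moved beyond 0.22, limma's typical SD for a difference of 2 arrays, to 0.52 with the mean of its probe sets. The deposited values were already quantile normalised and the array medians read 4.33 to 4.36, so both scalings could change little. The largest shift was 0.17 with quantile normalisation again and 0.02 with centring. ID2 has 1 probe set, so the mean of probe sets could not change it. The family was chosen by these differences, so their stability is description only. Counts of ID probe sets were within 1.5 times of those reported under both scalings and at a 1.5-fold threshold. The count of listed genes past the threshold over the 4 times, 0 as reported, became 2 without the 24 h pair and 1 with array quality weights, which was BHLHE40 (adjusted p = 0.0431), and was 0 without the 2, 6 or 12 h pair and under the other settings. Over all genes, that count was 3 as reported, 67 without the 24 h pair, 62 with weights, 1 with the mean of probe sets, 4 without dim genes and 0 without the 2, 6 or 12 h pair. For the slope in BSA it was 0 under all alternatives run, for listed and for all genes. The array weights were 0.176 for both 24 h arrays and 1.53 to 2.00 for the others. With 1 pair per time, the weights cannot tell the 2 arrays of a pair apart. The weighted fit is therefore close to that without the 24 h pair and is no separate support for BHLHE40. Of the 5 genes most like each member, 1 to 3 recurred without the TNF-α array at 24 h, 1 or 2 with Spearman's rho and 0 to 3 with the mean of probe sets. The fit of TNF-α against BSA already pairs the arrays of the same time, and the labels give no replicate numbers for a further block. With 1 array per condition no difference at a single time has an error of its own.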
